A study of Bos taurus with 6 samples.

Results

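Cytosolic ribosomal proteins form the protein part of the ribosome, the particle that translates mRNA. The small subunit reads the mRNA, and the large subunit joins the amino acids and leads the growing chain through its exit tunnel. Their mRNAs are among the most abundant of a growing cell. Most of them carry a 5′ terminal oligopyrimidine (TOP) tract, through which mTORC1 signalling and LARP1 set their translation and stability together. Several of these proteins also act outside the ribosome, among them RPL11, which binds MDM2, and RPSA, which is also known as the laminin receptor.

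The genes were chosen by symbol alone: RPL or RPS followed by a digit, or RPLP0, RPLP1, RPLP2 or RPSA, with the RPS6 kinases and RPS19BP1 left out. The deposited table held 48 such features among 18014, 27 of the large (60S) subunit and 21 of the small (40S) subunit. They were measured in primary bovine vaginal epithelial cells (BVECs), grown to confluence from vaginal tissue of healthy young cows. The SQ0048 group was cocultured for 4 h with SQ0048, a *Lactobacillus* strain, added as 1000000000 CFU/ml, and was then washed, and the control group received DMEM–F-12 medium handled in the same way. Each group had 3 poly(A) RNA libraries. The study calls them biological replicates, but no source used here says whether they came from separate cultures or animals, so the p values may reflect technical spread in part or in whole.

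Values are FPKM, a fragment count divided by exon length and by the library's mapped fragments, and the deposited table holds no read depth per library. The sum over all features was 351850 ± 8633 FPKM in the control libraries and 374488 ± 3723 FPKM in the SQ0048 libraries (SD, n = 3). The epithelial label was checked against 10 epithelial markers, none of them at 0. They summed to 5016 to 5441 FPKM in the control libraries and 5935 to 6218 FPKM in the SQ0048 libraries. Most of that sum came from KRT7, KRT8, KRT18 and KRT19, with control means of 921, 1118, 1273 and 1450 FPKM. The keratins KRT5 and KRT14 were low, at 14.3 to 22.2 and 0.19 to 0.51 FPKM over the 6 libraries. Fibroblast markers summed to 59.1 to 64.0 and 58.6 to 60.5 FPKM, leukocyte markers to 2.65 to 3.04 and 2.53 to 3.06 FPKM, and endothelial markers to 1.56 to 1.61 and 2.42 to 2.51 FPKM. The epithelial markers KRT8 and KRT18, keratins of simple epithelia, rose by 0.32 and 0.31 on the log2 scale, calls that were lost with quantile normalization (0.097 and 0.075), and GRHL2, a transcription factor of epithelia, fell by 0.45. The collagen COL3A1 made up most of the fibroblast sum at 47.1 to 54.3 FPKM. The fibroblast markers that were called lay under 5 FPKM, with COL1A1, COL1A2 and THY1 higher by 0.53, 0.61 and 0.58 and POSTN lower (−0.78). The part of these markers in the ribosomal protein values was not tested. In bulk RNA, a change in the share of cells of a type and a change in RNA per cell cannot be told apart.

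Changes were tested with limma on log2(FPKM + 0.1) over the 13144 features that averaged 0.5 FPKM or more, and a gene was called at a Benjamini-Hochberg adjusted p under 0.05. Of the 48 members, 45 entered this test. RPL3L, RPLP2 and the joined feature RPL36A-HNRNPH2 lay below the limit. RPS13 was tested but was listed at 0 in every SQ0048 library, so the counts below cover the other 44 members, 24 of the large and 20 of the small subunit.

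The 48 members took 11.3% ± 0.238 of the summed FPKM of a control library and 12.0% ± 0.150 of a SQ0048 library (SD, n = 3). A further 48 features annotated as ribosomal carry no RPL or RPS symbol and are not in this sum. The share of all ribosomal protein mRNAs was therefore larger. The control libraries were at 11.26, 11.50 and 11.02%, and the SQ0048 libraries at 12.00, 11.88 and 12.18%, so the groups did not overlap. In absolute terms the members summed to 39487, 41504 and 37896 FPKM in the control libraries and 45468, 44272 and 45308 FPKM in the SQ0048 libraries, a ratio of the means of 1.14, beside a ratio of 1.06 for all features. The large subunit members took 4.20, 4.47 and 4.36% of the control libraries and 4.52, 4.55 and 4.91% of the SQ0048 libraries. The small subunit members took 7.06, 7.03 and 6.66% and then 7.48, 7.33 and 7.27%. Neither subunit overlapped between the groups. The ratio of the large to the small subunit sum was 0.595, 0.636 and 0.655 in the control libraries and 0.604, 0.621 and 0.675 in the SQ0048 libraries, which overlapped. With 3 libraries against 3, a two-sided exact permutation test of such a single value cannot go below p = 0.1. The ratio covers the named members only. Features described as 60S proteins such as L8 and L10, or as the 40S protein S25, are in neither sum. It therefore does not give the balance of all 60S to all 40S mRNAs.

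**Figure D1:**
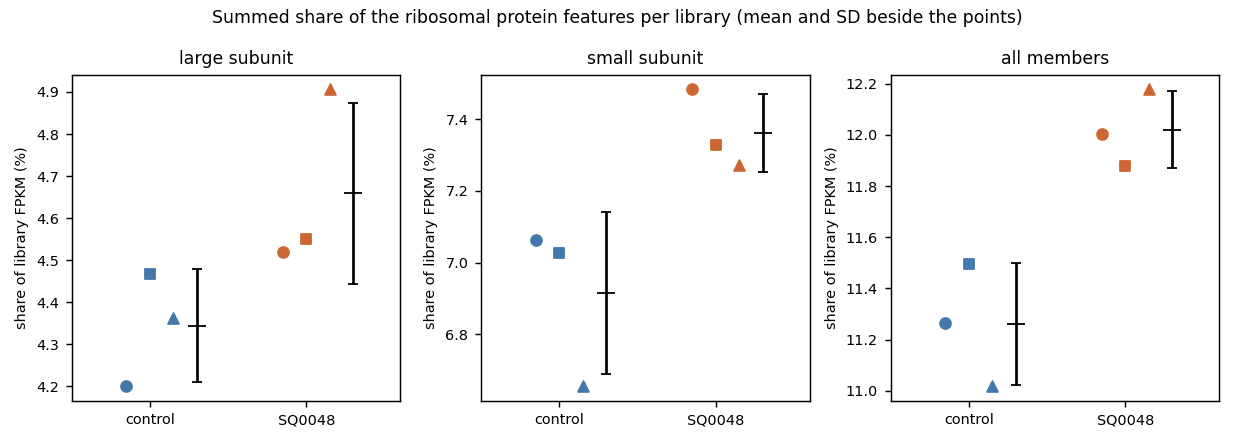
Share of the summed FPKM of each library (%, axes not starting at 0) taken by the large subunit members, the small subunit members and all members. Circles, squares and triangles are replicates 1, 2 and 3, and the bars give the mean and SD of 3 libraries. The 3 SQ0048 libraries lie at 11.88 to 12.18% for all members, above the control libraries at 11.02 to 11.50%.

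The members were among the most abundant features of these cells. Of the 100 features with the highest mean FPKM, 27 were members, and 4 were among the highest 10. Small subunit members had means of 380.3 to 2622 FPKM with a median of 1231 FPKM. Large subunit members ranged more widely, from 32.5 to 1836 FPKM with a median of 554 FPKM. In all, 41 of the 44 averaged 100 FPKM or more and 17 averaged 1000 FPKM or more. FPKM is a level per length, so members can be ranked on it, but reads shared with processed pseudogenes, which ribosomal protein genes have in large numbers, may be split between copies.

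**Figure D2:**
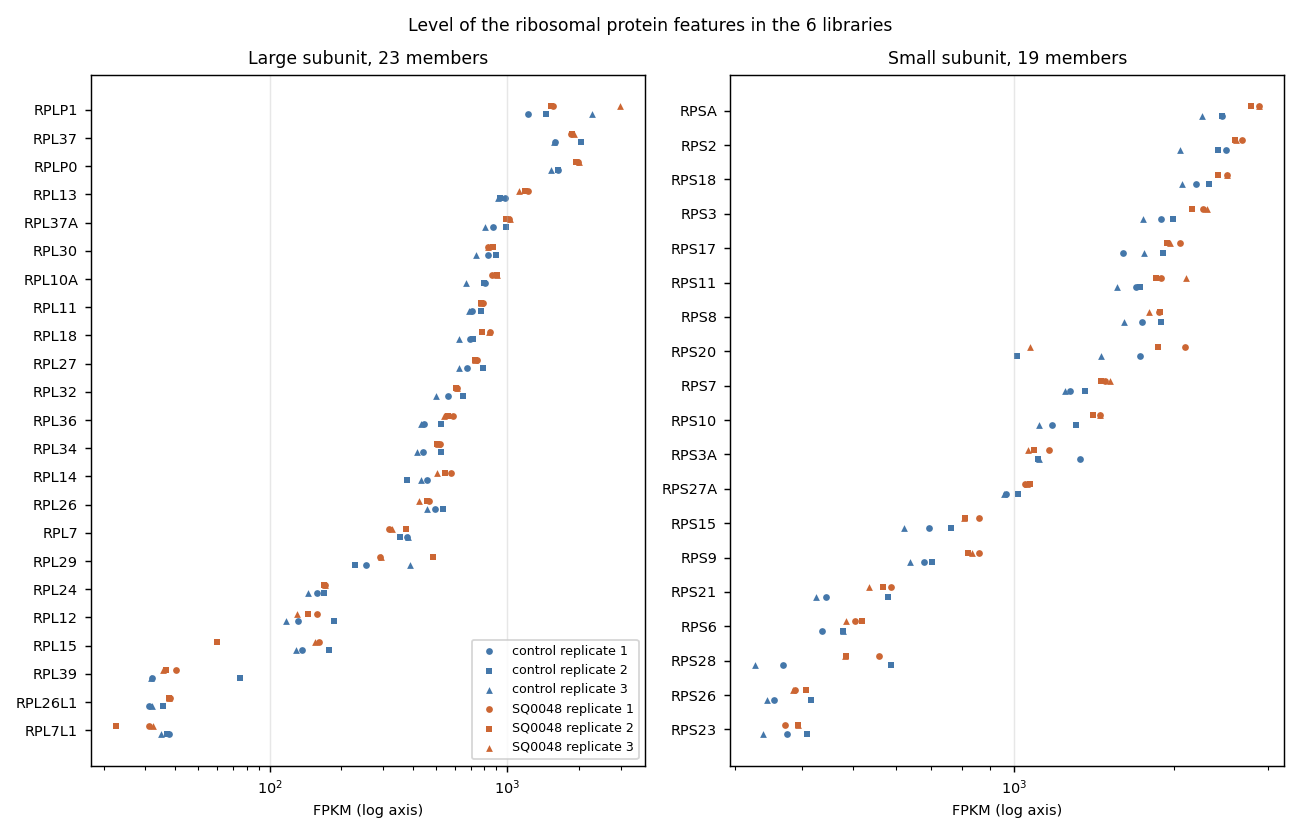
FPKM (log axis) of 42 of the 44 tested members without an exact 0 in each of the 6 libraries, ordered by mean level within each subunit. Blue points are control and orange points SQ0048 libraries. RPSA, at 2251 to 2887 FPKM, leads the small subunit, and RPL7L1, at 22.6 to 37.6 FPKM, is the lowest of the large subunit.

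After SQ0048, 11 of the 44 members were called higher and 0 lower by limma. That is 25.0% of the members, beside 8.59% of all tested features called higher and 15.8% called lower. The large subunit gave 5 of 24 (20.8%) and the small subunit 6 of 20 (30.0%). At an unadjusted p under 0.05, 19 of the 44 members were higher, beside 14.2% of all features. At the same threshold 1 was lower, RPL7L1, beside 24.2% of all features. The changes were small. The median log2 fold change was 0.14 for the large and 0.21 for the small subunit, or 1.10-fold and 1.16-fold, beside −0.08 for all tested features. No member changed by a factor of 2 or more, so 0 of them met the fold change and p thresholds the study used, which 5.52% of all features met.

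The direction was more uniform than the calls. The log2 fold change was above 0 in 38 of the 44 members (19 of 24 large, 19 of 20 small), beside 42.7% of all tested features. The SQ0048 libraries all lay above the control libraries for 21 members (8 large, 13 small), or 47.7%, beside 17.4% of all features. They all lay below them for 1 member, RPL7L1, beside 28.3% of all features. Abundance moved with the direction. The 456 other features that averaged 100 FPKM or more had a median log2 fold change of 0.10, 64.0% of them were above 0, and 108 (23.7%) were called higher against 26 lower. The share of members called higher was thus close to that of other features of high level, and the part of the level in the members' values was not tested beyond this.

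**Figure D3:**
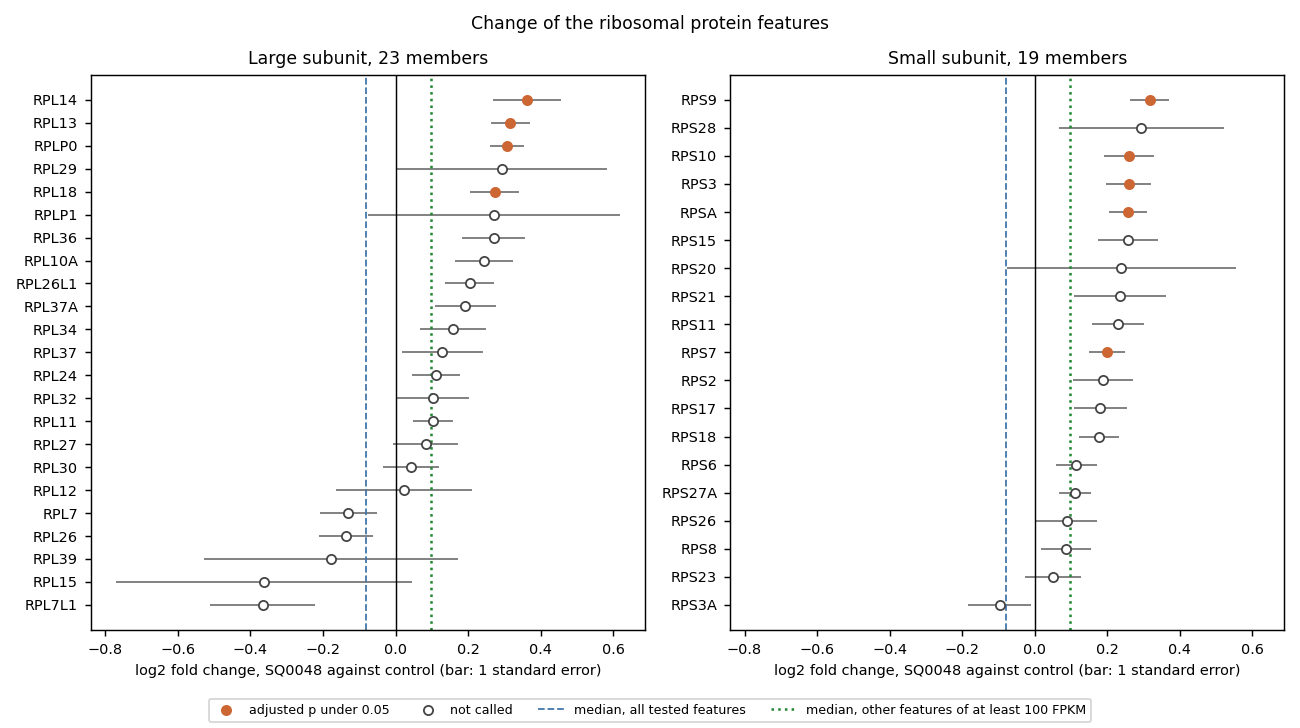
log2 fold change of SQ0048 against control for 42 of the 44 members, with bars of 1 standard error. Filled points are 9 of the 11 members at an adjusted p under 0.05 in limma, the dashed line is the median of all tested features (−0.08) and the dotted line that of the 456 other features averaging 100 FPKM or more (0.10).

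The count of calls depended on how the libraries were scaled. With FPKM rescaled to TPM, 5 members were called higher, RPL13, RPLP0, RPS9 and RPSA among them, and 1 lower (RPL26). With median-of-ratios size factors 19 were called higher, all 11 of those above among them. With quantile normalization none was called higher and RPL26 was called lower, and 20 of the 44 members had a log2 fold change above 0. Of all 13144 features, 1129 were called higher and 2072 lower as deposited, and 755 and 2638 in TPM. With size factors these counts were 1529 and 1640, and with quantile normalization 1335 and 1602. Over all features the share of calls that were higher was 35.3% as deposited, 22.3% in TPM, 48.2% with size factors and 45.5% with quantile normalization. The median of all features was then −0.17 in TPM and −0.01 under each of the other 2 scalings. The large subunit median stood above that of all features in every setting plotted except quantile normalization, where it was −0.051. Leaving out control replicate 2 raised the members called to 19. Leaving out control replicate 1, SQ0048 replicate 1 or SQ0048 replicate 3 lowered them to 3 each. Leaving out control replicate 3 or SQ0048 replicate 2 lowered them to 6 and 5. Over all features, leaving out 1 library gave 1689 to 2954 calls, beside 3201 with all libraries. The 3 members called without each library in turn were RPL13, RPLP0 and RPS9, and over all planned settings the highest adjusted p of the 11 ran from 0.117 for RPS9 to 0.895 for RPS10.

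**Figure D4:**
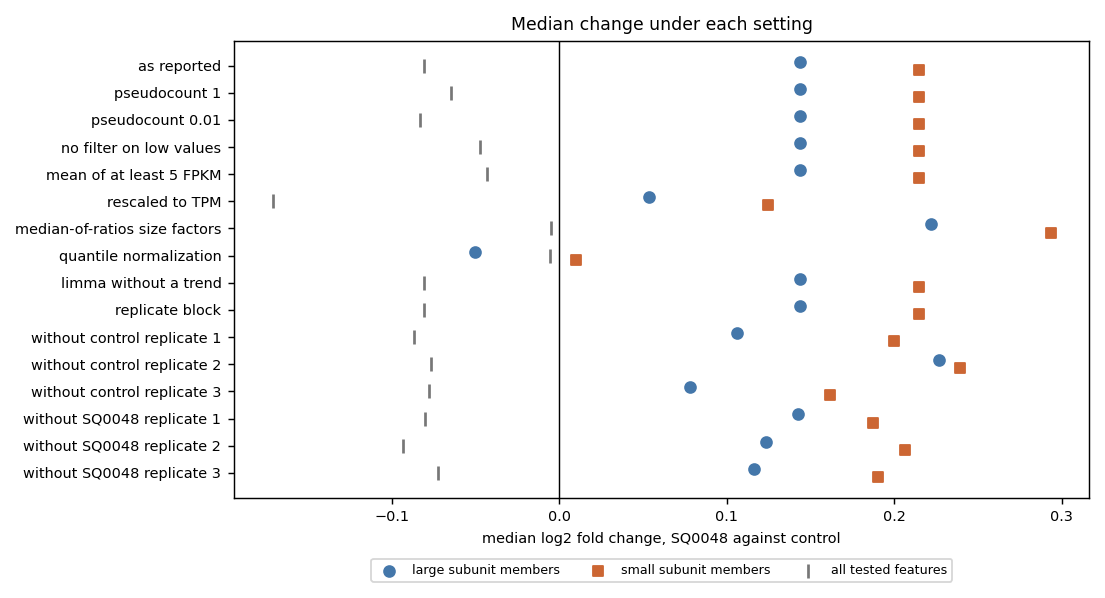
Median log2 fold change of the large subunit members (circles), the small subunit members (squares) and all tested features (bars) as reported and under 15 alternative settings. The small subunit median is above 0 in each, at 0.0099 with quantile normalization, where the large subunit median is −0.051.

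Among the acidic stalk proteins, which recruit and activate the translation factors at the large subunit, RPLP0 rose. Its level was 1637, 1632 and 1525 FPKM in the controls and 1990, 1942 and 1995 FPKM after SQ0048. The SQ0048 libraries lay close together and above every control library. The log2 fold change was 0.31 ± 0.05 (SE, adjusted p = 0.0093 in limma). Its partner RPLP1 was at 1227, 1450 and 2269 FPKM and then 1562, 1527 and 2980 FPKM, with replicate 3 highest in each group and the groups overlapping (0.27 ± 0.35, adjusted p = 0.605). The feature named RPLP2, the other partner, was listed at 0.05, 0.08 and 0.00 FPKM and then 0.38, 0.56 and 0.05 FPKM. Its place in the gene order could not be checked, and such low values can be a failed estimate. Whether they give the level of the RPLP2 mRNA is therefore uncertain. RPLP0 and RPLP1 were thus at like levels, and the feature named RPLP2, a protein the stalk also holds, was below the limit for testing.

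The other large subunit members described here that were called are structural proteins of the 60S body. RPL14 had the largest rise of any member, from 461, 379 and 431 FPKM to 582, 545 and 504 FPKM. Every SQ0048 library lay above the controls, at 0.36 ± 0.09 (adjusted p = 0.0404 in limma). RPL13, a protein on the solvent side of the 60S subunit, went from 978, 936 and 912 FPKM to 1220, 1183 and 1117 FPKM. Its change was 0.32 ± 0.05 (adjusted p = 0.0125). RPL18 went from 694, 720 and 627 FPKM to 845, 780 and 838 FPKM (0.27 ± 0.07, adjusted p = 0.0378). In all 3 the groups did not overlap.

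In the small subunit, some of the called members line the path of the mRNA. RPS9, which sits near the mRNA entry and bears on decoding accuracy, was at 679, 703 and 638 FPKM in the controls and 862, 819 and 833 FPKM after SQ0048. The lowest SQ0048 library was well above the highest control library, and the change was 0.32 ± 0.05 (SE, adjusted p = 0.0120 in limma). RPS3, also at the mRNA entry and known in human cells as a partner of NF-κB, went from 1891, 1988 and 1750 FPKM to 2263, 2163 and 2302 FPKM (0.26 ± 0.06, adjusted p = 0.0326). For both the groups were apart.

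RPSA, a late-joining 40S protein, was the most abundant member with 2462, 2460 and 2251 FPKM in the controls and 2884, 2790.5 and 2887 FPKM in the SQ0048 libraries. Control replicate 3 was the lowest library, and the change was 0.26 ± 0.05 (adjusted p = 0.0213 in limma). RPS10, a protein that is ubiquitinated when ribosomes collide, went from 1181, 1308 and 1112 FPKM to 1450, 1405 and 1451 FPKM (0.26 ± 0.07, adjusted p = 0.0431). RPS7, which can bind MDM2, went from 1274, 1360 and 1247 FPKM to 1483, 1459 and 1514 FPKM (0.20 ± 0.05, adjusted p = 0.0360). The groups were apart for all 3, but RPS7 had a log2 fold change of −0.019 with quantile normalization.

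The other most abundant members had smaller values. RPS2, at the mRNA entry, was at 2496, 2414 and 2049 FPKM and then 2684, 2599 and 2615 FPKM (0.19 ± 0.08, adjusted p = 0.157 in limma). RPS18, of the small subunit head, was at 2195, 2322 and 2065 FPKM and then 2507, 2418 and 2509 FPKM (0.18 ± 0.06, adjusted p = 0.0724). In both the SQ0048 libraries lay above the controls, without passing the test. RPL37 was at 1584, 2046 and 1567 FPKM and then 1859, 1879 and 1900 FPKM, and control replicate 2 lay above every SQ0048 library (0.13, adjusted p = 0.443).

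Several members are known for work outside the ribosome. RPL11, which with RPL5 binds MDM2 when ribosome assembly is disturbed, was at 710, 775 and 690 FPKM and then 787, 774 and 772 FPKM, with overlapping groups (0.10 ± 0.06, adjusted p = 0.234 in limma). RPS6, the substrate of the S6 kinases, was at 436, 478 and 477 FPKM and then 502, 518 and 485 FPKM (0.11 ± 0.06, adjusted p = 0.196). RPS27A, made as a fusion with ubiquitin, was at 966, 1018 and 957 FPKM and then 1047, 1073 and 1056 FPKM (0.11 ± 0.04, adjusted p = 0.119). The groups were apart for RPS6 and RPS27A, at changes that did not pass the test.

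RPL7L1, a relative of RPL7 that takes part in ribosome assembly, was the only member whose SQ0048 libraries all lay below the controls. It was at 37.6, 36.9 and 34.9 FPKM and then 30.9, 22.6 and 32.3 FPKM, with SQ0048 replicate 2 the lowest (−0.37 ± 0.15, adjusted p = 0.125 in limma). RPL7, its canonical paralog, was at 378, 354 and 381 FPKM and then 317, 376 and 326 FPKM, with overlapping groups (−0.13 ± 0.08, adjusted p = 0.282). RPL26L1, a close copy of RPL26, moved the other way, at 31.0, 35.7 and 32.0 FPKM and then 38.1, 37.5 and 37.8 FPKM with the groups apart (0.20 ± 0.07, adjusted p = 0.0799). RPL26, which lies by the exit tunnel and is the main target of UFMylation on the ribosome, was at 496, 535 and 458 FPKM and then 469, 459 and 424 FPKM (−0.14 ± 0.07, adjusted p = 0.240). RPL26 and RPL26L1 are near-identical, so reads may be divided between them, and neither difference within a pair was tested. RPL3L, the form of RPL3 found in heart and skeletal muscle, was at 0.03 to 0.13 FPKM in every library.

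The 6 members with a log2 fold change below 0 were RPL7, RPL26, RPL39, RPL15, RPL7L1 and RPS3A, chosen here after their values were seen. Scaling each library to the geometric mean of the 44 members compares the members with each other, a setting added after the data were seen. On that scale RPL26 fell by 0.28 (adjusted p = 0.0202 in limma) and RPL7L1 fell by 0.51 (adjusted p = 0.0491). RPS9 rose by 0.17 (adjusted p = 0.0382), and no other member was called. Over all 13144 tested features, 494 were called higher and 2546 lower on that scale. RPS3A, a 40S protein at the mRNA exit side, was at 1329, 1112 and 1113 FPKM and then 1162, 1089 and 1063 FPKM as deposited, and its groups overlapped. The adjusted p of RPL26 over the settings ran from 0.0072 to 0.600.

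RPS13, a 40S protein at the subunit interface, was listed at 174, 222 and 189 FPKM in the controls and at 0 in all 3 SQ0048 libraries. An exact 0 for a gene that every cell uses can be a failed estimate, so no fold change is given. RPL36A-HNRNPH2, a feature that joins a ribosomal protein gene with its neighbour, was at 0.00 to 0.11 FPKM with a 0 in 1 library of each group. RPLP2 had its 0 in control replicate 3.

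In a few other members, chosen after their values were seen, single libraries stood apart within a group. RPS20, ubiquitinated like RPS10 on collided ribosomes, was at 1724, 1015 and 1455 FPKM in the controls and 2095, 1865 and 1072 FPKM in the SQ0048 libraries. RPL29 was at 255, 228 and 391 FPKM and then 291, 489 and 294 FPKM. RPL15 was at 137, 178 and 130 FPKM and then 161, 59.9 and 155 FPKM, with SQ0048 replicate 2 far below and the other SQ0048 libraries within the control range (−0.36 ± 0.41). RPL39, of the exit tunnel, was at 31.9, 74.9 and 31.8 FPKM and then 40.4, 36.5 and 35.5 FPKM, and only control replicate 2 lay above the SQ0048 libraries. None of these passed the test, and the libraries that stood apart were not the same in each.

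**Figure D5:**
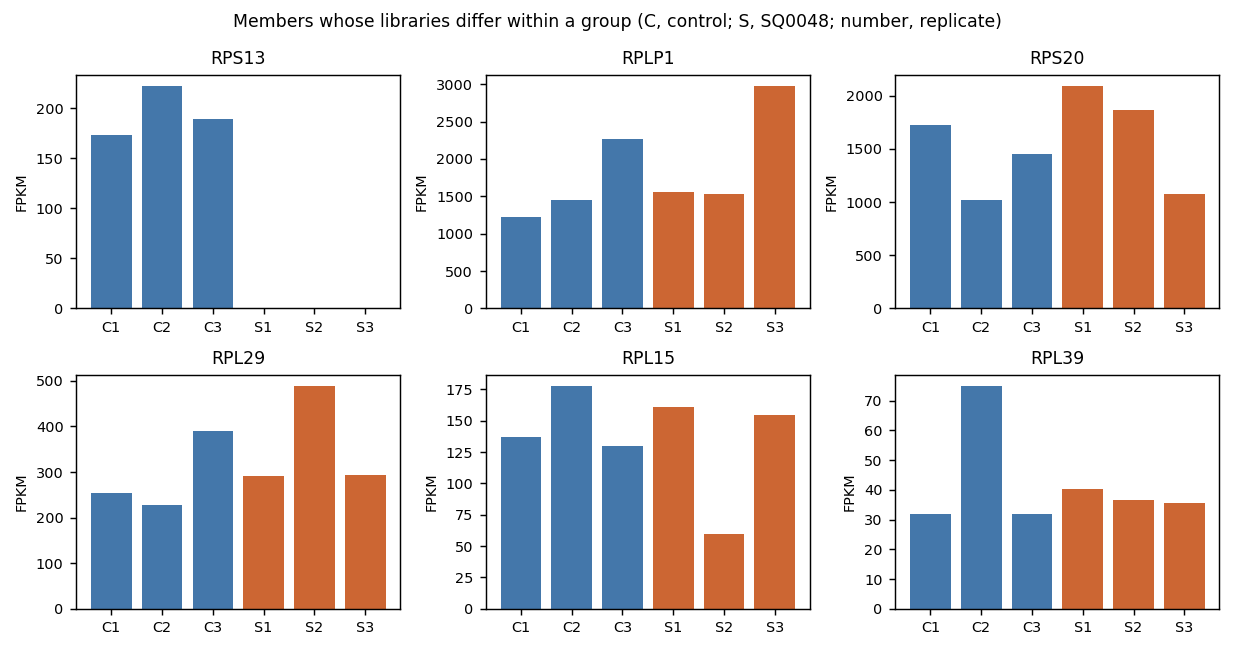
FPKM in each library (C, control, S, SQ0048, with the replicate number, axes from 0) of RPS13 and 5 members with uneven libraries. RPS13 is at 174 to 222 FPKM in the control libraries and at 0 in the SQ0048 libraries, while the libraries that stand apart are not the same in the other 5.

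The feature numbers that the assembly gave follow the order of genes along the genome, which allowed a check of each symbol. Of 9851 named features, 46 (0.47%) had no near neighbour in the RefSeq gene order (ARS-UCD2.0, used for order only) among the 3 named features on each side. Of the 45 members that could be checked, 4 were of this kind. RPL15 lay between NBEAL1 and ABI2, RPL39 between FGD1 and GNL3L, RPS6 between ACSL3 and AP1S3, and RPS13 beside PLXDC2. Which gene copy the values under these 4 symbols come from is therefore uncertain, and none of them was among the 11 members called.

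Replicates were closer together after SQ0048. The coefficient of variation over 3 libraries had a median of 8.94% in the control and 3.04% in the SQ0048 group over the 44 members, and it was lower in SQ0048 for 36 of them. Over all tested features without a 0 the medians were 10.1% and 10.5%, and 49.0% had the lower value in SQ0048. The control spread had a common order, since control replicate 3 was the lowest control library for 35 members and control replicate 2 the highest for 32, beside 31.0% and 31.2% of all features. The members therefore moved together between the control libraries. The summed FPKM of all other features had the same order, at 311077, 319551 and 306037 FPKM in control replicates 1, 2 and 3. Its SD was 6829 FPKM in the control and 3421 FPKM in the SQ0048 group. Whether the order is particular to the members was not tested, nor was the difference in spread.

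A further 48 features were annotated as ribosomal, through KEGG or their description, without carrying an RPL or RPS symbol. Of these, 47 were tested, 45 of them without a 0. Among the 45, 8 were called higher and 0 lower, beside 8.59% and 15.8% of all features. The log2 fold change was above 0 in 35 of the 45, beside 42.7% of all features, and its median was 0.08. Of the 456 other features averaging 100 FPKM or more, 23.7% were called higher and 64.0% were above 0. The feature described as 60S ribosomal protein L10, which completes the peptidyl transferase region, had a mean of 999.7 FPKM in the control and 1282 FPKM in the SQ0048 group (0.36, adjusted p = 0.0176 in limma). That of L8, close to the catalytic centre, had means of 1112 and 1355 FPKM (0.29, adjusted p = 0.0257). That of L5, the partner of RPL11, had means of 842.5 and 719.6 FPKM and did not pass the test (−0.23, adjusted p = 0.0609).

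Other mRNAs of the TOP class share the translational control of the members. Of 12 tested, 1 was called higher and 0 lower, beside 8.59% and 15.8% of all features, with a median log2 fold change of 0.08. At an unadjusted p under 0.05, where 24.2% of all features were lower, the only lower gene was EIF3E, a subunit of initiation factor 3 (−0.27 ± 0.10, adjusted p = 0.109 in limma). RACK1, a protein of the 40S head outside the naming scheme, was at 1313, 1404 and 1225 FPKM and then 1615, 1214 and 1631 FPKM, with overlapping groups.

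Genes that act on TOP mRNAs or on mTORC1 were called in both directions. Of 17 tested, 5 were called higher and 4 lower, beside 8.59% and 15.8% of all features. DDIT4 (REDD1), which restrains mTORC1, was at 12.4, 9.34 and 12.9 FPKM and then 48.3, 41.1 and 41.7 FPKM (1.92 ± 0.15, adjusted p = 0.0019 in limma). SESN2, a leucine-regulated inhibitor of the same pathway, rose by 0.83 ± 0.08 (adjusted p = 0.0038). TSC1, also a negative regulator, fell by 0.67 (adjusted p = 0.0186). LARP4, which binds poly(A) tails and protects mRNAs of ribosomal proteins from shortening, was at 15.1, 16.9 and 17.8 FPKM and then 10.4, 11.1 and 10.3 FPKM (−0.64 ± 0.08, adjusted p = 0.0066). Beyond the rule for named genes, RPS6KB1, the S6 kinase that phosphorylates RPS6, fell by 0.62 (adjusted p = 0.0112), while its relative RPS6KB2 rose by 0.40 (adjusted p = 0.0148). Of 7 other genes with an RPS6K symbol tested, 1 was called lower, RPS6KC1 (−0.55, adjusted p = 0.0409 in limma), and 0 higher. Over all features 15.8% were called lower and 8.59% higher. No RPS6KA gene, the symbol of the RSK kinases, was called. The calls of DDIT4, SESN2 and LARP4 held under every other scaling, filter and model at the same adjusted p threshold and without each library, that of TSC1 was lost without control replicate 1 or 3 or SQ0048 replicate 1 or 3, and that of RPS6KC1 was lost under 10 settings.

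Among chaperones and importers of ribosomal proteins, 4 of 10 tested were called lower and 0 higher by limma, beside 15.8% and 8.59% of all features, with a median log2 fold change of −0.27. TNPO1, an import receptor of ribosomal proteins, was at 11.2, 11.7 and 12.5 FPKM and then 6.73, 7.85 and 6.33 FPKM (−0.76 ± 0.10, adjusted p = 0.0070 in limma). IPO7, which carries RPL5 and RPL11 into the nucleus, was at 42.6, 44.0 and 49.6 FPKM and then 27.7, 32.4 and 27.5 FPKM (−0.64 ± 0.10, adjusted p = 0.0092). GRWD1, a chaperone of RPL3, and BCCIP, a chaperone of RPL23, fell by 0.43 and 0.37 (adjusted p = 0.0115 and 0.0247). The calls of TNPO1, IPO7 and GRWD1 held without each library in turn, and that of BCCIP was lost without any 1 library but SQ0048 replicate 3. The difference between these genes and the members was not tested.

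Of 19 ribosome quality control genes tested, 6 were called lower and 2 higher, beside 15.8% and 8.59% of all features. ABCE1, which splits ribosomes after termination, was at 24.5, 23.9 and 27.4 FPKM and then 13.6, 15.6 and 13.1 FPKM (−0.84 ± 0.09, adjusted p = 0.0047 in limma). NEMF and LTN1, which act on stalled chains at the 60S subunit, fell by 0.75 and 0.65 (adjusted p = 0.0183 and 0.0187), and ASCC3, a helicase that splits collided ribosomes, fell by 0.71 (adjusted p = 0.0373). The call of ABCE1 held under every other scaling, filter and model at the same adjusted p threshold and without each library. Those of NEMF, LTN1 and ASCC3 were lost without SQ0048 replicate 1 or 3, and those of LTN1 and ASCC3 also without control replicate 1 or 3, and that of ASCC3 without control replicate 2, with no filter and with quantile normalization too. Of 7 genes of the ribosomal stress and p53 checkpoint, 1 was called higher and 0 lower, beside 8.59% and 15.8% of all features. CDKN1A (p21) was at 12.8, 11.9 and 14.4 FPKM and then 64.5, 254 and 65.7 FPKM, with SQ0048 replicate 2 far above the others (2.97 ± 0.55, adjusted p = 0.0164). Its call was lost without any 1 of the control libraries. MDM2, the p53 ligase that free RPL5 and RPL11 inhibit, was at 4.12, 3.64 and 5.11 FPKM and then 6.39, 4.79 and 6.60 FPKM, with overlapping groups (0.46 ± 0.18, adjusted p = 0.121).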

How the data were processed

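Poly(A) RNA of 3 control and 3 SQ0048-treated BVEC samples was sequenced, and groups were taken from the sample labels. The authors deposited 1 table of FPKM values per feature and library, with no counts. The authors trimmed with Cutadapt, aligned with Hisat, quantified with Cufflinks and tested with edgeR, which was not used here. The submitters' processing notes list StringTie 1.3.0, HISAT2 2.0 and Bowtie 0.12.2, on the genome build ARS-UCD1.2. They name TruSeq stranded mRNA and NEB Next Ultra kits. No source used here gives the strand setting, so whether reads of overlapping genes were kept apart is not known. FPKM is relative to each library's mapped fragments, so a change in a few abundant genes moves all others, and the table holds no depth per library, so no counting interval was given.

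The table was handled in pandas 2.3.3 under Python 3.11.15, and the test was limma 3.58.1 under R 4.3.3 (lmFit, eBayes with a trend), two-sided, on log2(FPKM + 0.1), with condition as the only term and Benjamini-Hochberg adjustment over features that averaged 0.5 FPKM or more. Fold changes on that scale are understated for low genes. The fit was tested on simulated data, and figures were drawn with matplotlib 3.10.9. Per-sample columns left unused numbered 0. The members and the 10 gene lists were chosen with earlier results of these data known. Genes described singly were the called members, the 3 most abundant of each subunit, those with an exact 0, paralog pairs, members with roles outside the ribosome, and up to 4 called genes of each list with the largest change. Alternatives were a pseudocount of 1 or 0.01, a limit of 5 FPKM or none, TPM, size factors, quantile normalization, no trend, a replicate block, the study's thresholds, each library left out and, added later, scaling to the members. Sequences were not analysed here, and the values of some single genes are not reported here.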

Additional observations from a re-analysis of the deposited data

How the results depend on the processing

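The pseudocounts and the stricter filter left the 11 member calls as they were. Members called in the large and the small subunit numbered 5 and 6 as reported, 1 and 1 with no filter, 8 and 11 with size factors, 1 and 0 with quantile normalization, 2 and 1 without a trend, and 0 and 0 at a fold change of at least 2. In TPM the small subunit had 2. Scaled to the members, a setting added after seeing the data, they numbered 2 and 1, with medians of −2.97e-05 and 0.071 beside −0.22 for all features. With quantile normalization the medians were −0.051 and 0.0099, and RPS7 turned to −0.019. Leaving out 1 library gave 2 to 9 large and 1 to 10 small subunit calls, and 1689 to 2954 of all features beside 3201. The study's thresholds gave 726 of all features. Over all features, 2903 were called with no filter, 3393 in TPM, 3169 with size factors and 2937 with quantile normalization. Without a trend 2989 were called, and scaled to the members 3040. The cause of these differences was not tested.

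Control and SQ0048 libraries share replicate numbers without a stated pairing, and the correlations of their deviations from the group means ran from −0.0137 to 0.0130, so they were not taken as pairs. With a replicate block 847 features were called, and 0 and 0 members. The block also ended the calls of the other named genes except DDIT4, SESN2, LARP4, TNPO1 and ABCE1. Over the settings with the adjusted p threshold, 34 genes called and named kept their call in 360 values, lost it in 173 and turned in 1. The 14 named genes not called stayed so in 211 values and gained a call in 11.

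The table holds no depth per library, so no counting error is given for low members such as RPL3L and RPLP2.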

Other observations

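FAU, which encodes ribosomal protein S30 fused to a ubiquitin-like domain and has no RPS symbol, was listed at 6.92, 7.35 and 306 FPKM in the controls and 9.83, 11.0 and 448 FPKM in the SQ0048 libraries, with replicate 3 far above the others in each group. The feature lay between HELB and IRAK3, where RefSeq places no FAU gene nearby.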
